A study of Mus musculus with 16 samples.

Results

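Bulk retina RNA of 12-month-old Elovl2 mutant mice was compared with that of 12-month-old wildtype mice. The comparison took 3 mutant and 3 wildtype libraries, 6 of the 16 in the series, chosen by the names of their columns in a table of FPKM, a read count scaled by gene length and by library size. The mice were C57BL6/J, and none of these 6 retinas had been injected. The series also holds 4 uninjected wildtype retinas from 18-month-old mice, whose levels are given beside some genes, and 6 retinas injected at 18 months, which are not used here. The mutant carries a changed codon in Elovl2. The sources used here do not say whether the allele was homozygous, nor whether each library came from a separate animal. The p-values below therefore measure the spread between libraries, part of which may be technical. The estimate of that spread includes the 18-month wildtype group.

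Elovl2 encodes an elongase of the endoplasmic reticulum that lengthens polyunsaturated fatty acids, and its products are shortened in peroxisomes to docosahexaenoic acid (DHA). Photoreceptor outer segments hold more DHA than almost any other membrane in the body, and mice that lack Elovl2 activity have been studied as a model of the ageing retina.

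The labels write the allele in 2 ways, C234W in the design text and C34W in the genotype field of the mutant samples. The reference coding sequence of Elovl2-201, which runs on the minus strand of chromosome 13 and has 291 codons, was read at each position in build mm10. The following windows of 27 bases are shown because they place the allele, with the codon at the stated position in capitals. Codon 234 lies in exon 7 of 8, at chr13:41186916-41186918, within chr13:41186904-41186930. Codon 34 lies in exon 3, at chr13:41194800-41194802, within chr13:41194788-41194814.
Codon 234: ttcccctttggcTGTctcatcttccag
Codon 34: ttcctgctggacTCTtaccttcccacc
Codon 234 is TGT, which encodes cysteine, and codon 34 is TCT, which does not. The FPKM table holds no bases, so the presence of the allele in the 3 mutant libraries could not be read from it.

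The 6 libraries held between 14988833 and 30519417 counted reads, recovered from the FPKM values and gene lengths. All were female by their transcripts, with Xist at 36.7 to 107 FPKM and Ddx3y, Uty, Eif2s3y and Kdm5d listed at 0. The summed level of 39 rod genes was 22078 to 24624 FPKM, lens Cryaa was at or near 0, and Rpe65, a pigment epithelium gene, lay at 5.72 to 15.1 FPKM. Malat1, a long RNA kept in the nucleus, split the libraries within both genotypes: wildtype 1 and 2 and mutant 1 held 232, 377 and 307 FPKM, and wildtype 3 and mutants 2 and 3 held 85.7, 130 and 108 FPKM. The first principal component followed that split and carried 57.2% of the variance, so differences are also given within each Malat1 level. Within a level, mutant 1 stands against wildtype 1 and 2, or mutants 2 and 3 stand against wildtype 3, and no test was run within a level. Wildtype 1 stood apart in glial stress genes, described below.

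Elovl2 itself was transcribed at the same order in both genotypes. It measured 19.4, 23.2 and 21.1 FPKM in wildtype and 19.7, 20.6 and 21.9 FPKM in the mutants, so the groups overlapped. The log2 difference was -0.03 with a 95% interval from -0.20 to 0.13. Wildtype retinas at 18 months held 23.9 ± 0.0705 FPKM (SD, n = 4).

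No gene passed the test between genotypes in the fit reported here. Of 13786 genes with a mean of at least 1 FPKM, 0 (0.0%) had an adjusted p under 0.05 in limma with Benjamini-Hochberg adjustment, and the smallest adjusted p was 0.9998. At an unadjusted p under 0.05 there were 302 genes (2.19%), 149 higher in the mutants (1.08%) and 153 lower (1.11%). That is less than the share of 0.05 that such a threshold gives on average with no difference. edgeR and DESeq2 on the recovered reads also called 0 genes, with 294 and 346 genes at an unadjusted p under 0.05. A limma fit with the Malat1 level as a term called 0, with 673 at that unadjusted p. Library quality weights were the exception among the limma alternatives on these genes: they gave 2598 genes past the adjusted threshold and 5278 at an unadjusted p under 0.05, with wildtype 1 weighted at 5.76 and wildtype 3 at 0.237. The median gene differed by -0.006 on the log2 scale, and 47.7% of genes had a positive difference. Every difference named from here on is from the unweighted fit and did not pass its threshold.

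The intervals limit how large an unseen difference could be. The 95% interval of the log2 difference lay within -1 and 1, that is under a 2-fold change either way, for 13224 genes (95.9%), and within -0.5 and 0.5 for 80.3%. Among 4914 genes with a mean of at least 10 FPKM, 98.7% lay within the wider bound and 87.2% within the narrower one. These intervals are on log2(FPKM + 1), a scale that understates the change of genes near 1 FPKM. With a pseudocount of 0.1 in place of 1, 12629 genes lay within the wider bound.

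A plainer count is of genes whose 3 mutant libraries all lay above, or all below, the 3 wildtype ones. There were 420 such genes higher in the mutants (3.05%) and 403 lower (2.92%). With no difference between genotypes, 1 in 20 genes would on average fall in each direction, and both shares were below that. These shares are the background against which the gene lists below are read. The lists were chosen with earlier results of these data known, so a share above the background is not independent support for a list. Such counts grow with fewer libraries: over all genes they ranged from 619 to 1764 higher and from 678 to 1584 lower when 1 library was left out, the most without wildtype 3. With 3 libraries a group, an exact permutation test of a single gene cannot give a two-sided p below 0.1.

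**Figure D1:**
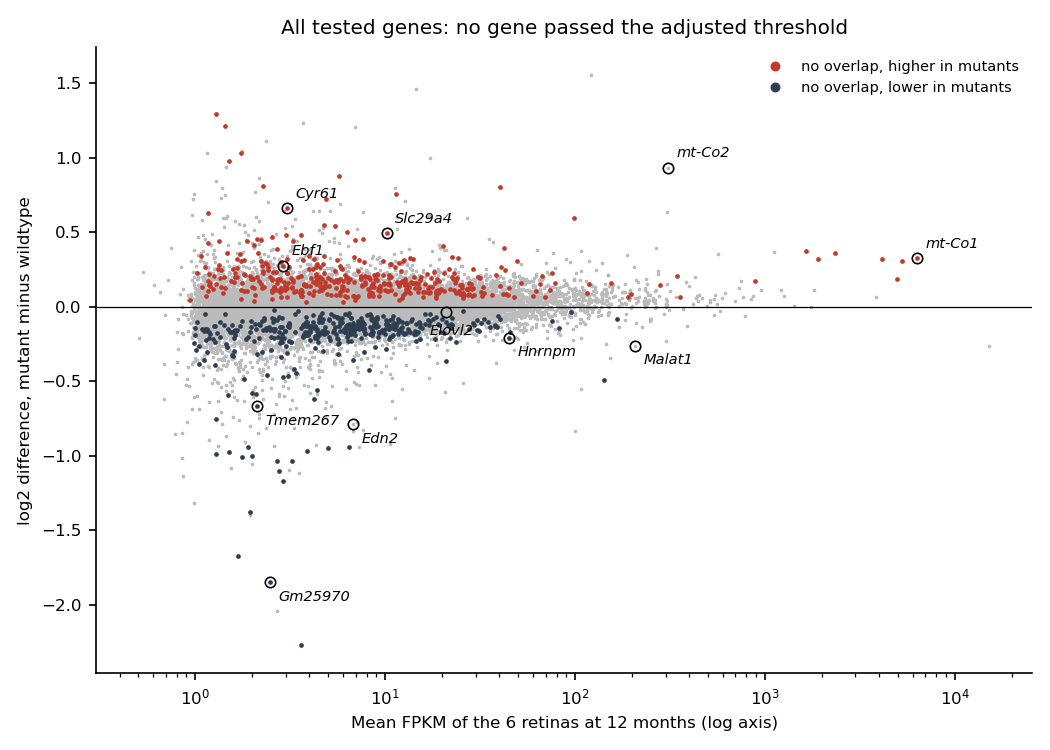
Each point is 1 of 13786 tested genes, with its mean FPKM over the 6 retinas at 12 months on a log axis and its log2 difference, mutant minus wildtype, on the vertical axis. Red and dark points mark the 420 and 403 genes whose groups did not overlap, none of which passed the adjusted threshold, and circles mark named genes such as Ebf1 at 0.27 and Gm25970 at -1.85.

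The enzymes around Elovl2 differed little. Of 15 elongases and desaturases tested, 8 were higher and 7 lower, the median difference was 0.01, and 0 were without overlap. Elovl4, which makes the very-long-chain fatty acids of photoreceptors, measured 156, 179 and 178 FPKM in wildtype and 168, 188 and 194 FPKM in the mutants (log2 difference 0.10, 95% interval -0.10 to 0.30). The desaturases that feed Elovl2 overlapped as well: Fads1 held 20.2, 16.6 and 16.3 FPKM in wildtype and 19.4, 18.0 and 17.8 FPKM in mutants. Fads2 held 32.2, 26.7 and 28.1 FPKM in wildtype and 28.5, 27.9 and 33.4 FPKM in mutants. For both desaturases the interval ran from -0.15 to no more than 0.26. Elovl5, the related elongase of shorter substrates, had an interval from -0.21 to 0.15, and Elovl6, which lengthens saturated fatty acids, one from -0.17 to 0.19.

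The peroxisomal steps that turn the Elovl2 product into DHA gave 14 of 27 tested genes higher and a median of 0.00. Hsd17b4, the bifunctional enzyme of this route, had a difference of -0.01 (-0.22 to 0.20). The 2 members without overlap, 7.41% of the list, were both higher. Pex3, which builds peroxisome membranes, measured 5.02, 4.91 and 5.08 FPKM in wildtype and 5.66, 5.69 and 5.89 FPKM in mutants (0.17, 0.01 to 0.32). Cat, the peroxisomal catalase, was higher by 0.12 (-0.08 to 0.33).

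Uptake of DHA and its entry into phospholipids gave 14 of 31 genes higher, with a median of -0.01. Fabp3, a cytosolic fatty acid carrier, was the 1 member without overlap (3.23%), at 17.4, 18.4 and 20.2 FPKM in wildtype and 20.4, 21.7 and 24.1 FPKM in mutants (0.23, 0.02 to 0.44). Mfsd2a, the lysophospholipid DHA transporter of the blood-retina barrier, lay at 1.29, 1.17 and 1.63 FPKM in wildtype and 1.10, 1.06 and 1.24 FPKM in mutants (-0.14, -0.46 to 0.17). Mitochondrial fatty acid oxidation gave 7 of 20 genes higher, and 2 members, 10% of the list, were lower without overlap. They were Slc25a20, the acylcarnitine carrier (-0.23, -0.46 to 0.00), and Hadhb, a subunit of the trifunctional protein (-0.18, -0.43 to 0.07).

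The sterol synthesis list, which SREBP2 drives and polyunsaturated fatty acids can damp through SREBP1, had 26 of 34 genes higher, a median of 0.06 and 3 genes higher without overlap (8.82%): Srebf2 (0.08), Hsd17b7 (0.06) and Sc5d (0.05). Its median was 0.0089 with 18 genes higher without wildtype 2. Within the libraries of low Malat1 it was -0.04, against 0.08 within those of high Malat1, and the count without overlap was 0 after centring each library on its median gene. Among 29 ferroptosis and lipid peroxide genes 14 were higher. The members without overlap (6.9%) were Nqo1, a quinone reductase (0.31, -0.02 to 0.64), and Aldh3a2, a fatty aldehyde dehydrogenase (0.15, 0.01 to 0.29). PPAR target genes gave 11 of 18 higher and 0 without overlap.

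Ebf1, Slc29a4 and Cyr61 were among the genes with the smallest p-values in the protein-coding set, and all were higher in the mutants. Ebf1, a transcription factor of B cells that also marks retinal amacrine cells, ganglion cells and pericytes, lies on chromosome 11 at 44617317 to 45008091 in mm10. It measured 2.56, 2.63 and 2.40 FPKM in wildtype and 3.24, 3.39 and 3.18 FPKM in the mutants, from 490 to 1074 reads a library. The lowest mutant exceeded the highest wildtype library. The ratio of means was 1.29, and the log2 difference was 0.27 (95% interval 0.12 to 0.43) with an unadjusted p of 0.003 in limma.

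Slc29a4, the plasma membrane monoamine transporter that takes up serotonin and dopamine, measured 7.02, 9.74 and 8.26 FPKM in wildtype and 10.5, 12.5 and 13.4 FPKM in the mutants. Its groups did not overlap, the means were 8.34 ± 1.36 and 12.1 ± 1.48 FPKM (SD, n = 3 each), and the log2 difference was 0.49 (0.21 to 0.78). The mutant libraries also lay above the 18-month wildtype mean of 8.97 ± 0.957 FPKM (SD, n = 4). Of 13 monoamine and nucleoside transport genes tested, 9 were higher, and Dck, a nucleoside kinase, was the other without overlap. Both are counted in the share of 15.4% of that list.

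Cyr61, also named Ccn1, encodes a matrix protein secreted by vascular and glial cells and is a target of YAP and serum response factor. It measured 2.18, 1.94 and 2.19 FPKM in wildtype and 2.67, 4.57 and 4.77 FPKM in the mutants. The ratio of means was 1.90 and the log2 difference 0.66 (0.28 to 1.04), and the mutant of high Malat1 was the lowest of the 3. Within high Malat1 the difference was 0.26, and within low Malat1 it was 0.83. The list of YAP and serum response targets, with Cyr61 counted in it, gave 10 of 23 higher and a median of -0.05, and Thbs1 was lower without overlap (4.35%). Levels at 18 months in wildtype retina were 3.22 ± 0.174 FPKM for Ebf1 and 3.18 ± 0.534 FPKM for Cyr61 (SD, n = 4). The comparison of wildtype ages and this one share the same 3 wildtype libraries at 12 months.

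**Figure D2:**
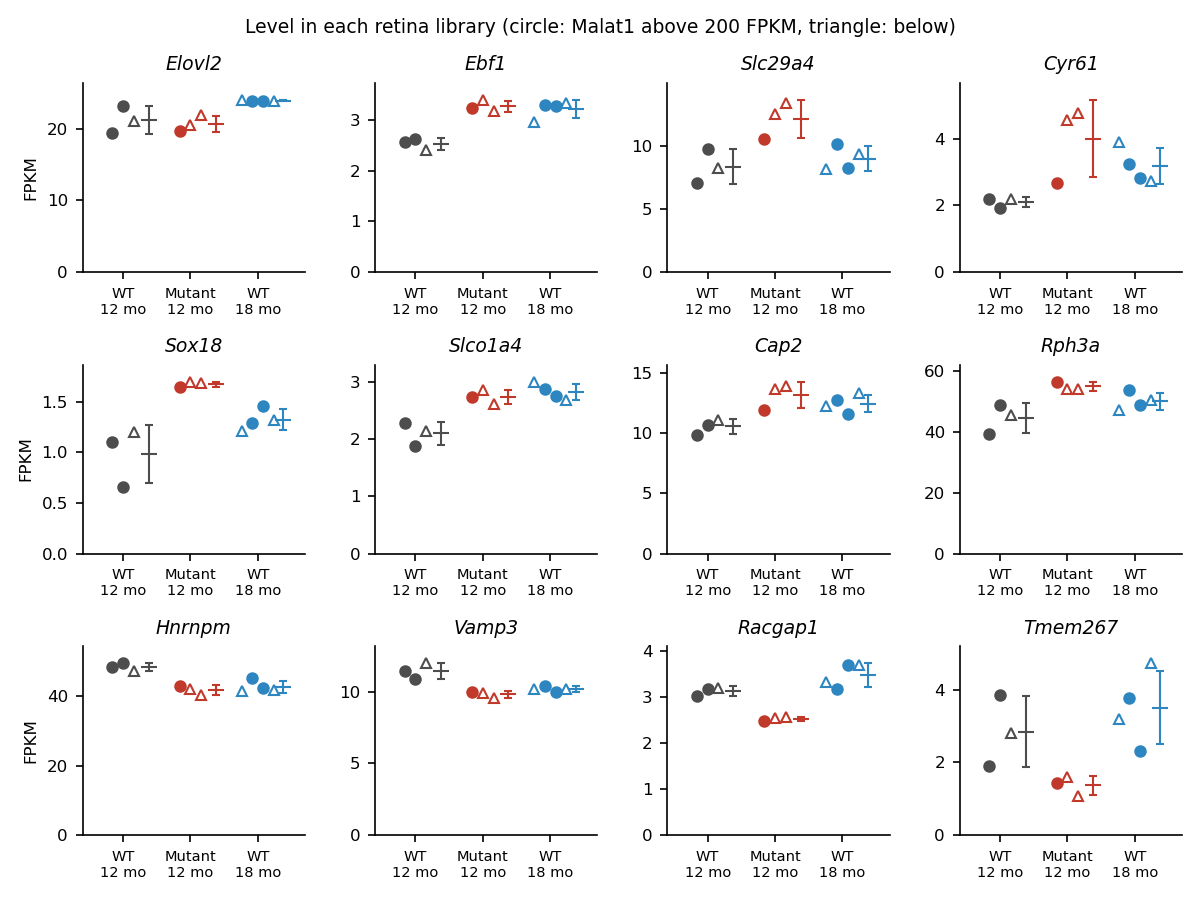
FPKM of 12 genes in every uninjected retina library, with groups on the horizontal axis and the mean and SD beside the points. Circles are libraries with Malat1 above 200 FPKM and open triangles those below. Elovl2 overlaps between genotypes, whereas the mutants lie above wildtype at 12 months for Ebf1 to Rph3a and below it for Hnrnpm to Tmem267.

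Genes of the vessel wall were mostly higher in the mutants by count, and none passed the test. Of 23 endothelial and barrier genes tested, 19 were higher and 6 (26.1%, against 3.05% of all genes) were higher without overlap, and the list median was 0.07. This list was chosen with earlier results of these data known, so that share is not an independent test. Sox18, a transcription factor of endothelial cells, measured 1.10, 0.658 and 1.20 FPKM in wildtype and 1.64, 1.69 and 1.68 FPKM in the mutants (0.44, 0.18 to 0.70). Slco1a4, an organic anion transporter of barrier endothelium, measured 2.28, 1.88 and 2.14 FPKM in wildtype and 2.72, 2.86 and 2.61 FPKM in the mutants (0.27, 0.09 to 0.44). For both genes every mutant lay above every wildtype library.

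The other 4 had smaller differences. Abcb1a, the efflux pump P-glycoprotein, differed by 0.18 (0.00 to 0.36), and Cdh5, the junction protein VE-cadherin, by 0.19 (-0.09 to 0.48). Ly6a, a surface antigen of mouse endothelium, differed by 0.20 (-0.12 to 0.53), and Flt1, a VEGF receptor, by 0.07 (-0.12 to 0.27). Cldn5, the tight junction claudin of barrier vessels, overlapped at 11.2, 7.49 and 15.4 FPKM in wildtype and 9.82, 12.3 and 9.08 FPKM in mutants. Pecam1 overlapped too (0.11, -0.16 to 0.37). The summed level of the 33 listed genes was 160 to 196 FPKM in wildtype and 184 to 197 FPKM in mutants, so the sums overlapped. The list median was 0.16 within high Malat1 and 0.05 within low Malat1. Without wildtype 2 the median was 0.034 and 14 of the 23 were higher, and with the Malat1 level as a term 14 were higher. The count of 6 without overlap was the same after centring each library on its median gene and after TMM scaling of reads. It was 10 without wildtype 3, a setting that also raised the count over all genes. In bulk retina, more cells of a type and more RNA per cell cannot be told apart.

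Pericyte and smooth muscle genes gave 10 of 14 higher, but 6 of 14 within low Malat1. Ebf1 was the only member without overlap (7.14%), and Pdgfrb, the pericyte receptor, had an interval from -0.16 to 0.26. Matrix and fibroblast genes gave 10 of 24 higher, with Cyr61 above and Thbs1 below without overlap (4.17% each). Blood transcripts gave 2 of 7 higher with a median of -0.28, which was -0.39 within high and -0.46 within low Malat1, and 0 were without overlap. Hba-a1, a haemoglobin chain, measured 22.9, 17.2 and 32.4 FPKM in wildtype and 9.48, 28.1 and 13.5 FPKM in mutants. Whether residual blood had a part in the vascular values was not tested.

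Other protein-coding genes were higher without overlap as well. Cap2, an actin-binding protein, measured 9.85, 10.7 and 11.1 FPKM in wildtype and 11.9, 13.7 and 13.9 FPKM in mutants (0.29, 0.12 to 0.47). Rph3a, rabphilin of synaptic vesicles, measured 39.1, 48.7 and 45.3 FPKM in wildtype and 56.3, 54.1 and 53.9 FPKM in mutants (0.30, 0.10 to 0.50). Atp6v1g2, the neuronal G subunit of the vacuolar proton pump, measured 34.9, 37.5 and 38.8 FPKM in wildtype and 42.7, 44.4 and 47.5 FPKM in mutants (0.27, 0.10 to 0.44). The ratios of means were 1.25, 1.23 and 1.21, and in each gene the lowest mutant exceeded the highest wildtype library.

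The remaining 4 of the 12 protein-coding genes with the smallest p in this direction had smaller differences. Clic4, a chloride channel protein of endothelium and glia, differed by 0.24 (0.08 to 0.40). Btbd6, a ubiquitin ligase adaptor, differed by 0.22 (0.07 to 0.36). Cog5, a Golgi tethering subunit, differed by 0.20 (0.07 to 0.34), and Tmem229b by 0.20 (0.07 to 0.32). The 18-month wildtype means were 12.4 ± 0.736 FPKM for Cap2, 42.4 ± 2.14 for Atp6v1g2, 49.9 ± 2.72 for Rph3a and 6.06 ± 0.332 for Clic4.

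Among the protein-coding genes lower without overlap, Hnrnpm, a splicing factor, measured 48.4, 49.4 and 47.3 FPKM in wildtype and 43.0, 41.9 and 40.4 FPKM in the mutants. Its 6 libraries separated by more than their spread, with a log2 difference of -0.21 (-0.35 to -0.06), and the unadjusted p was 0.0092 in limma. Taf13, a subunit of the general transcription factor TFIID, measured 7.35, 7.36 and 8.57 FPKM in wildtype and 4.78, 6.73 and 6.13 FPKM in mutants (-0.36, -0.60 to -0.11). Kin, a DNA-binding zinc finger protein (-0.31), and Zfx, an X-linked zinc finger factor (-0.22), were lower as well.

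Vamp3, a SNARE of recycling endosomes, measured 11.4, 10.9 and 12.0 FPKM in wildtype and 9.999, 9.89 and 9.56 FPKM in mutants (-0.20, -0.33 to -0.07). Lrrc1, a scaffold of cell polarity, was nearly equal among wildtype libraries at 6.94, 6.93 and 6.92 FPKM and lay at 6.25, 5.38 and 5.73 FPKM in mutants (-0.23, -0.38 to -0.08). For these and for Hnrnpm, Taf13 and Kin, the 18-month wildtype means were 10.2 ± 0.180, 6.001 ± 0.265, 42.6 ± 1.67, 6.54 ± 0.358 and 7.11 ± 0.506 FPKM, each below the 12-month wildtype mean. All were named because the 12-month wildtype libraries lay above the mutants, a choice that favours a high wildtype mean at 12 months.

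Other genes had an 18-month level above the 12-month wildtype mean. Racgap1, a GTPase-activating protein of cytokinesis, measured 3.01, 3.17 and 3.20 FPKM in wildtype and 2.47, 2.53 and 2.56 FPKM in mutants (-0.23, -0.39 to -0.06), with 3.47 ± 0.263 FPKM at 18 months. Tmem267 measured 1.89, 3.84 and 2.80 FPKM in wildtype and between 1.09 and 1.61 FPKM in mutants (-0.67, -1.16 to -0.18), with 3.51 ± 1.01 FPKM at 18 months. 3110070M22Rik lay at 3.29, 4.16 and 3.82 FPKM against 2.42, 2.53 and 2.37 FPKM (-0.46, -0.80 to -0.13), with 4.43 ± 1.14 FPKM at 18 months. These 2 genes lie next to each other on chromosome 13, from 119487261 and 119488039. Slc15a2, a peptide transporter, differed by -0.62 (-1.08 to -0.16) and held 7.51 ± 1.45 FPKM at 18 months. No test of the mutants against the older wildtype retinas was run here.

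Zfp97, a zinc finger gene, and Tmem116 were lower by -0.34 and -0.26, and Gm10130 by -0.49. Gm47283, annotated as protein-coding on the Y chromosome, measured 7.75, 11.8 and 7.11 FPKM in wildtype and 4.79, 3.46 and 4.002 FPKM in mutants (-0.94, -1.51 to -0.37). It held reads in these female libraries, so its reads may come from a near-identical copy elsewhere and its identity is uncertain.

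Transcripts of the mitochondrial genome, which encode subunits of the respiratory chain, were higher by count, and the size depended on the library. Of 13 tested, 11 were higher with a median of 0.36. Higher without overlap were 7 (53.8%, against 3.05% of all genes): mt-Atp8, mt-Co1, mt-Nd1, mt-Nd5, mt-Cytb, mt-Nd2 and mt-Nd4. Members read in the same libraries can move together, so they are not separate observations. mt-Co1, a core subunit of cytochrome oxidase, measured 5892, 5422 and 5474 FPKM in wildtype and 5997, 7425 and 7705 FPKM in the mutants (0.32, 0.02 to 0.62). mt-Nd1, a complex I subunit, measured 4085, 3763 and 3206 FPKM in wildtype and 4174, 4737 and 4840 FPKM in mutants (0.32, 0.01 to 0.63). In both, mutant 1 barely exceeded the highest wildtype library, and mutants 2 and 3 lay well above.

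mt-Co2, the second subunit of cytochrome oxidase, overlapped at 281, 161 and 175 FPKM in wildtype and 223, 583 and 429 FPKM in mutants (0.93, 0.21 to 1.65). mt-Nd6, the only member on the light strand, did not share the direction (interval -0.27 to 0.27), and mt-Nd3 was lower at -0.56 (-1.21 to 0.10). Mean levels at 12 months were uneven, at 6319 FPKM for mt-Co1, 309 for mt-Co2, 107 for mt-Nd3 and 5.74 for mt-Atp8. Whether reads of the lower ones were shared with near-identical copies elsewhere was not tested. The share of counted reads from these genes was 3.17%, 2.85% and 2.46% in wildtype and 3.06%, 3.65% and 3.69% in mutants. Within high Malat1 the list median was 0.03 and within low Malat1, where wildtype 3 is the only control, it was 0.68. The count without overlap was 6 after centring, 3 after TMM scaling and 11 without mutant 1, which also raised the count over all genes. At 18 months wildtype retinas held 7342 ± 799 FPKM of mt-Co1 and 4626 ± 548 FPKM of mt-Nd1.

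The nuclear genes of the same complexes gave 42 of 52 higher, but with a median of 0.06 and 0 without overlap. Their median was 0.01 within high Malat1 and -0.13 within low Malat1, and it was -0.06 without wildtype 2. The nuclear and mitochondrial sets had opposite signs within the low-Malat1 libraries. Poly-A selected libraries read mitochondrial transcripts through short tails, and whether RNA quality had a part was not tested.

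**Figure D3:**
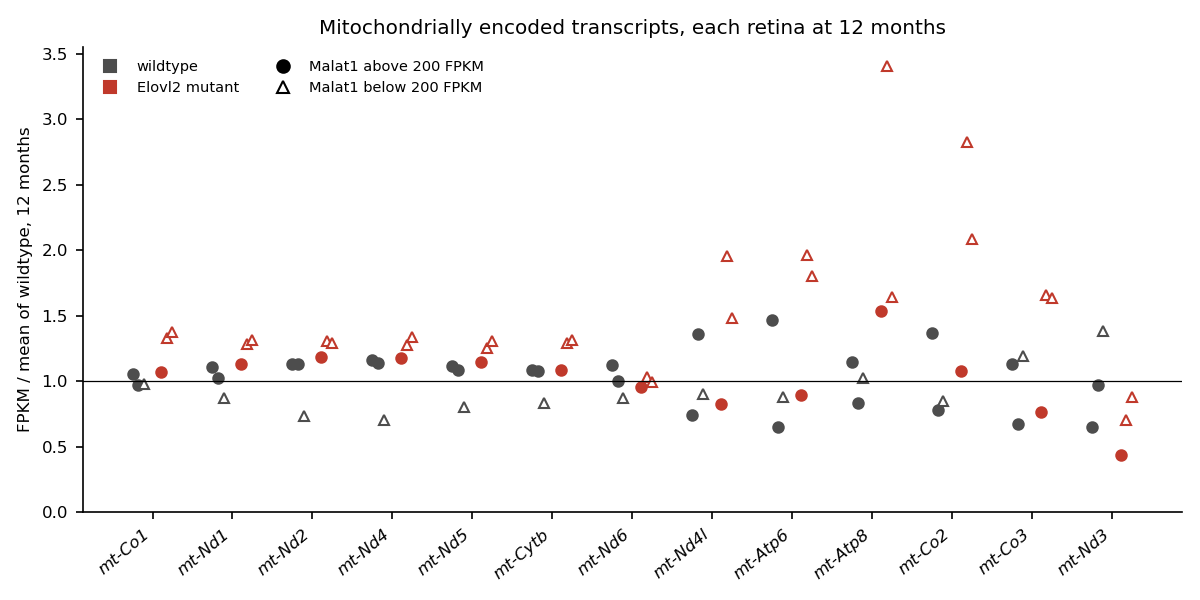
FPKM of the 13 mitochondrially encoded genes in each retina at 12 months, divided by the mean of the 3 wildtype libraries (line at 1). Mutants 2 and 3 (open red triangles) lie highest for most genes, mutant 1 lies near the wildtype libraries of the same Malat1 level, and mt-Nd3 runs the other way.

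The unfolded protein response, by which the endoplasmic reticulum raises chaperones and slows translation when proteins misfold, gave 18 of 30 genes lower and a median of -0.05. Lower without overlap were 5 genes (16.7%, against 2.92% of all genes), in a list chosen with earlier results of these data known. Creld2, a secreted chaperone, measured 18.7, 19.7 and 20.9 FPKM in wildtype and 16.9, 15.3 and 18.7 FPKM in the mutants (-0.21, -0.39 to -0.04). Ppp1r15a, a phosphatase subunit that restores translation, measured 5.04, 5.601 and 5.205 FPKM in wildtype and 4.68, 4.65 and 4.34 FPKM in mutants (-0.18, -0.35 to -0.01). In Creld2 the highest mutant and the lowest wildtype library were close.

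The other 3 were Dnajc3, a co-chaperone (-0.09, -0.23 to 0.04), Hsp90b1, the chaperone GRP94 (-0.10, -0.24 to 0.05), and Eif2ak3, the stress sensor PERK (-0.11, -0.29 to 0.06). Hspa5, the chaperone BiP, overlapped at 73.1, 67.4 and 90.2 FPKM in wildtype and 57.6, 65.9 and 75.3 FPKM in mutants (-0.21, -0.49 to 0.07). The count of 5 was 1 after centring each library on its median gene and 5 after TMM scaling. It was 8 without wildtype 2 and 9 without mutant 3, and leaving out either also raised the count over all genes. At 18 months wildtype retinas held 17.6 ± 0.701 FPKM of Creld2 and 66.3 ± 2.05 FPKM of Hsp90b1.

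Atf5, a factor of the integrated stress response, was the 1 member of this list higher without overlap, at 12.4, 10.7 and 10.02 FPKM in wildtype and 12.7, 14.1 and 14.7 FPKM in mutants (0.31, 0.07 to 0.54). Asns, asparagine synthetase, measured 17.6, 21.8 and 14.0 FPKM in wildtype and 19.5, 25.7 and 24.7 FPKM in mutants (0.38, 0.04 to 0.73). Its groups overlapped and wildtype 3 was lowest, as it was for Sesn2 (0.34) and Chac1 (0.64). Within high Malat1 Asns, Sesn2 and Chac1 differed by -0.01, 0.06 and -0.04, and within low Malat1 by 0.81, 0.70 and 1.59.

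Chaperone genes of this response are known to share the endoplasmic reticulum stress element, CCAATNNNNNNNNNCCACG, read by ATF6 together with NF-Y. The element was looked for on both strands in RefSeq promoters (GRCm38.p6, 250 bases before to 50 after the start), after the list values were known. It occurred in 39 of 32851 promoters (0.119%) and in 8 of 28 promoters of list genes (28.6%), which belong to 27 genes. The higher share in the list follows from that known sharing and is no result about these retinas. Stretches around it are shown for 4 of these genes, the 3 lower without overlap and Hspa5, 5′ to 3′ on the gene's strand with the element in capitals. The capitals read CCAAT first where the element is on the gene's strand and end in ATTGG where it is on the other.
Creld2, chr15:88819500-88819558, plus strand: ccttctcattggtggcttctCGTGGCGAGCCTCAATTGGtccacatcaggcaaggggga
Dnajc3, chr14:118937807-118937865, plus strand: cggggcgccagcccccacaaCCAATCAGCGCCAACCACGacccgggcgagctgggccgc
Hsp90b1, chr10:86705513-86705676, minus strand: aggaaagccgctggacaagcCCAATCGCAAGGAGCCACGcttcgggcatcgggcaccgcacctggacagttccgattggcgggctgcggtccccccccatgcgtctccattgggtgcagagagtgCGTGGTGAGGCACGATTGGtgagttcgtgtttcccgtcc
Hspa5, chr2:34772005-34772063, plus strand: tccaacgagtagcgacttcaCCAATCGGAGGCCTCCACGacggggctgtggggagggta
Hsp90b1 held 2 copies in opposite orientations. Of the 8 list genes with the element 7 were lower, with a median of -0.09 and a range from -0.21 to 0.03. Those not shown were Syvn1 (-0.17), Calr (-0.03), Pdia6 (-0.03) and Canx (0.03), whose groups overlapped. Over all genes 7213 of 13786 were lower. Genes with the element outside the list numbered 6 among those tested, of which 4 were lower with a median of -0.01. A match to these letters is a description of the promoter and not a measurement of binding.

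Cytosolic heat shock genes gave 12 of 22 lower, a median of -0.01 and 3 lower without overlap (13.6%). They were Hspa1b, an inducible HSP70 (-0.17, -0.34 to 0.00), Hsph1, an HSP110 (-0.15, -0.33 to 0.02), and Chordc1, an HSP90 partner (-0.13, -0.27 to 0.02). Hspa1b shares most of its sequence with a neighbouring copy, so its reads may be split between them.

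Photoreceptor genes were close between genotypes. Of 39 rod genes 25 were higher, with a median of 0.04. Without overlap were 2 higher and 2 lower (5.13% each, against 3.05% and 2.92% of all genes). Reep6, a shaper of rod endoplasmic reticulum, measured 316, 351 and 289 FPKM in wildtype and 377, 362 and 361 FPKM in mutants (0.21, 0.01 to 0.41). Tulp1, a photoreceptor protein, and Prom1, a protein of the outer segment base, were lower by -0.08 and -0.04.

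Cone genes gave 13 of 18 higher, with Opn1sw, the short-wavelength opsin, alone without overlap (0.16, -0.01 to 0.32), which is 5.56% of the list. The retinoid visual cycle gave 13 of 16 higher and a median of 0.09. Its sign differed between the Malat1 levels, with a median of 0.18 within high and -0.08 within low, where 6 of 16 were higher. Stra6, a receptor for retinol-binding protein, and Rbp3, the retinoid carrier between photoreceptors and pigment epithelium, were without overlap (0.27 and 0.17), 12.5% of the list. Rpe65 measured 5.72, 8.30 and 13.8 FPKM in wildtype and 13.6, 12.8 and 15.1 FPKM in mutants (0.60, -0.24 to 1.45). Pigment epithelium genes as a whole gave 10 of 17 higher, but 4 of 17 within low Malat1, with sums of 146 to 208 FPKM in wildtype and 184 to 187 FPKM in mutants. The part of attached pigment epithelium in the visual cycle values was not tested. Ribbon synapse genes gave 20 of 31 higher, with Slc17a7, the vesicular glutamate transporter (0.15), and Stx3 (0.09) without overlap, 6.45% of the list.

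Genes of inner retinal neurons were mostly higher by count, and for amacrine, horizontal and ganglion cells the sign differed between the Malat1 levels. Bipolar cell genes gave 26 of 31 higher and a median of 0.13, with 0.21 within high Malat1, 0.06 within low Malat1 and 0.03 without wildtype 1. There were 3 without overlap (9.68%), a count of 9 without wildtype 2 and 13 without wildtype 3. Leaving out a library also raised such counts over all genes. They included Rgs7, a regulator of the bipolar light response, and Syt2, a synaptotagmin (0.22, -0.09 to 0.53). Rgs7 measured 6.30, 7.49 and 5.88 FPKM in wildtype and 8.34, 7.598 and 7.76 FPKM in mutants (0.24, 0.04 to 0.44).

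Amacrine and horizontal cell genes gave 21 of 29 higher, with a median of 0.14 within high Malat1 and -0.09 within low Malat1, where 11 of 29 were higher. Ebf1, Lhx1, a horizontal cell factor (0.25), and Gad2, a GABA-synthesising enzyme (0.15), were without overlap, 10.3% of the list. Ganglion cell genes gave 19 of 27 higher with 0 without overlap, and medians of 0.07 within high and -0.10 within low Malat1, where 12 of 27 were higher. Genes of the EBF family and its partners gave 7 of 9 higher, and Ebf1 was the only one of them without overlap (11.1%).

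Reactive gliosis genes were lower in the mutants by count, and that rested on wildtype 1. Of 20 tested, 18 were lower with a median of -0.13 and 0 were without overlap. Gfap, the intermediate filament of stressed glia, measured 13.8, 4.54 and 3.88 FPKM in wildtype and 3.94, 7.57 and 4.06 FPKM in mutants. Edn2, an endothelin made by stressed photoreceptors, measured 23.1, 4.93 and 2.12 FPKM in wildtype and 2.31, 5.08 and 3.29 FPKM in mutants. Serpina3n, an acute phase serpin, followed the same order, with 9.11 FPKM in wildtype 1. Without wildtype 1 the median was 0.06 and 14 genes were higher.

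Müller glia genes gave 19 of 29 higher and 0 without overlap, but 9 of 29 within high Malat1. Microglia and macrophage genes gave 19 of 24 higher with a median of 0.14, and interferon and antigen presentation genes 23 of 30 with a median of 0.13. The sign of both lists differed between the Malat1 levels, and the microglia median was also -0.01 without wildtype 2 or without mutant 2. Within high Malat1 the medians were -0.20 and -0.18, with 2 members of each list higher. Within low Malat1 they were 0.35 and 0.35, with 20 and 26 higher. The low level has wildtype 3 as its only control. At the high level the listed microglia genes summed to 550 and 285 FPKM in wildtype 1 and 2 and 335 FPKM in mutant 1. The interferon sums were 254, 162 and 172 FPKM in the same order, so mutant 1 lay above wildtype 2 in both. Tyrobp, a microglial adaptor, measured 5.70, 2.13 and 2.85 FPKM in wildtype and 3.02, 6.84 and 6.46 FPKM in mutants. Ifit1, an interferon-induced gene, measured 3.33, 1.53 and 1.96 FPKM in wildtype and 1.65, 3.63 and 7.97 FPKM in mutants. In both genes mutant 1 lay inside the wildtype range. The members without overlap were lower, Cd74, the class II invariant chain, through 4.29 FPKM in wildtype 1, and Trim25 (-0.19, -0.42 to 0.04). They made up 4.17% of the microglia list and 3.33% of the interferon list. Complement genes gave 6 of 10 higher, and their sign differed between the levels in the same way, with medians of -0.31 and 0.48.

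**Figure D4:**
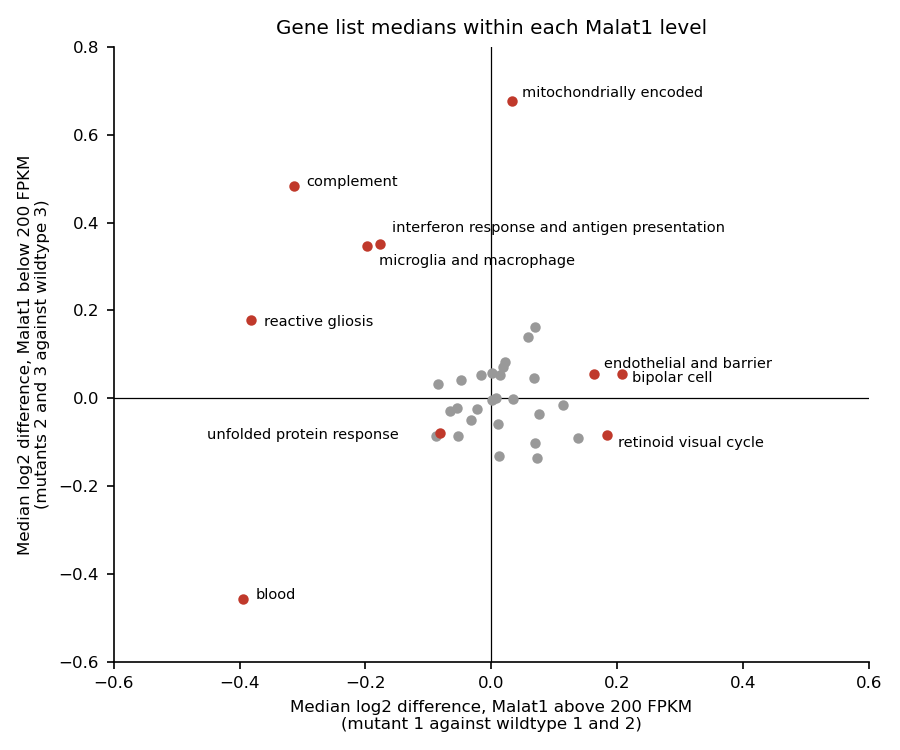
Median log2 difference of each gene list with at least 5 tested members, computed within the libraries of high Malat1 (horizontal axis) and of low Malat1 (vertical axis). Immune, complement and gliosis lists lie in the upper left, with opposite signs at each level, the mitochondrially encoded list lies at 0.03 and 0.68, and most lists lie near the origin.

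Other response programmes gave no direction. Of 22 core clock genes 10 were higher, with Bhlhe40 higher (0.14) and Arntl lower (-0.11) without overlap, 4.5% of the list each. Immediate early genes gave 12 of 24 higher. Without overlap, Cyr61 and Zfp36 (0.23) lay above (8.33%) and Btg2 (-0.09) below (4.17%). Senescence genes gave 4 of 11 higher. Mdm2, the p53 ligase, was lower without overlap (9.09% of the list) at 12.7, 14.0 and 13.6 FPKM in wildtype and 12.0, 11.5 and 11.5 FPKM in mutants (-0.18, -0.35 to -0.01).

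**Figure D5:**
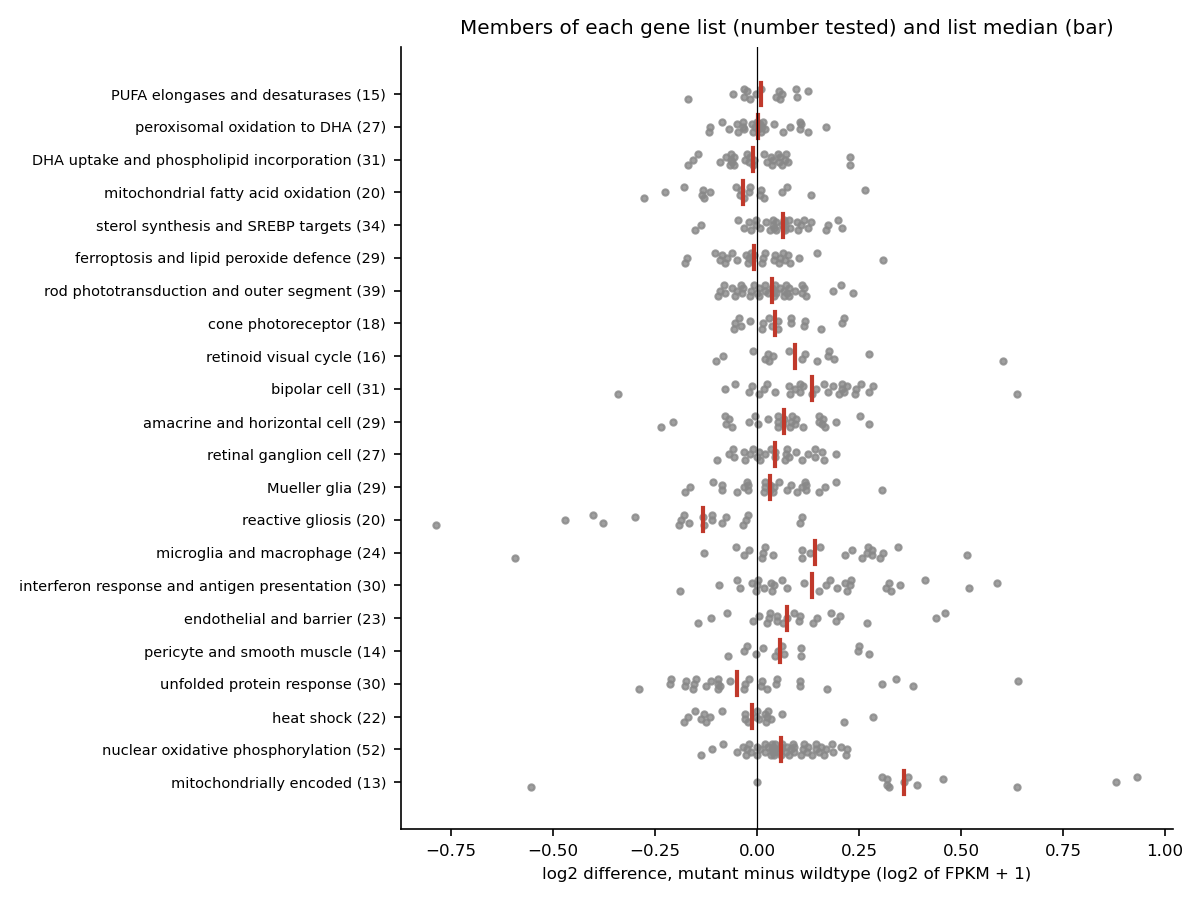
Log2 difference, mutant minus wildtype, of each tested member (grey points) of 22 gene lists, with the list median as a red bar. Medians of the lists shown range from -0.13 for reactive gliosis to 0.36 for the mitochondrially encoded genes, and no single member passed the adjusted threshold. The blood list, with a median of -0.28, is not shown.

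Of the 10 genes of any kind with the smallest p-values, 5 were short RNAs with few reads. Gm25970, a small nucleolar RNA on chromosome 12, held 14, 6 and 8 reads in wildtype and 2, 1 and 0 reads in the mutants, a log2 difference of -1.85 (-2.57 to -1.12) and an unadjusted p of 0.00022 in limma. Gm22485, a small nuclear RNA, held 10, 9 and 5 reads against 1, 1 and 0. Snora30 and Gm22270, also nucleolar, held 11 to 15 reads in wildtype and 2 to 11 in mutants. Mir1291 held 11, 8 and 14 reads against 3, 4 and 3.

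These counts come from poly-A selected libraries, which do not capture such RNAs by design. Over the whole class, 35 of 97 tested nucleolar RNAs were higher with a median of -0.17, and 7 (7.22%) were lower without overlap. For 105 microRNA loci 31 were higher with a median of -0.23. Both medians turned positive within low Malat1, at 0.17 and 0.16, and were -0.03 and -0.11 within high Malat1. Gm43377 and the long RNAs Gm46430 and Gm31166 were lower (-0.56, -0.31 and -0.47), and Gm9762, a processed pseudogene, was higher (0.50, 0.23 to 0.76). Processed pseudogenes gave 24 of 564 higher without overlap (4.26%) and 7 lower (1.24%).

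The chromosomal neighbours of the mutated gene were also counted. Of 34 tested genes within 5 Mb of Elovl2 on chromosome 13, 15 were higher, the median was -0.02, and 0 were without overlap. Cap2, 3110070M22Rik, Tmem267 and Gm46430, all on chromosome 13, lay farther from it.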

How the data were processed

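RNA of fresh retinas was poly-A selected and made into strand-marked libraries, per the labels' protocols. Reads were aligned to mm10 with HISAT2 2.2.1 and counted with featureCounts 2.0.6, and DESeq2 1.42.0 is also named, per the submitters' processing notes. Neither the annotation release nor the strand setting of the counting is stated in the labels or headers. The authors deposited FPKM for the 10 uninjected libraries and a raw count table for the 6 injected ones, whose totals were 22066668 to 25609242 and which entered no test. FPKM times gene length gave whole reads for 100% of values within a tolerance of 0.02.

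The log2 values were computed from the authors' deposited FPKM as log2(FPKM + 1) for 13786 of 54532 genes with a mean of at least 1 FPKM. limma 3.58.1 (R 4.3.3; trend and robust variance) was fitted over the 3 uninjected groups with the contrast mutant minus wildtype at 12 months, and p-values were Benjamini-Hochberg adjusted over all tested genes with a threshold of 0.05. Intervals are at the 95% level. Alternatives were edgeR 4.0.16 and DESeq2 1.42.0 on the recovered reads, a pseudocount of 0.1, no filter, a minimum mean of 5 FPKM, the 6 libraries alone, library weights, the replicate number as a block, the Malat1 level as a term, median centring and each library left out. Scripts were tested on simulated data.

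The gene lists, the members and the rule for naming genes were chosen with earlier results of these data known. The rule took the 10 genes with the smallest p, the 12 protein-coding genes per direction with the smallest p and no overlap between groups, the 4 per direction with the largest fold at an unadjusted p under 0.05, up to 3 members per list, and 13 fixed genes. Genes that complete a count without overlap, and Cldn5, Pecam1, Pdgfrb, Mfsd2a, Elovl6, the mitochondrial genes, Hspa5, Asns, Sesn2, Chac1, Edn2, Serpina3n, Tyrobp and Ifit1, were named after their values were seen.

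Same-numbered libraries did not deviate together (correlations of 0.18, -0.42 and 0.51), so replicate numbers were not taken as pairs. Some genes that the rule names are not reported here.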

Additional observations from a re-analysis of the deposited data

Results flagged for a closer look

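At 18 months, where the wildtype group has 4 libraries, 1 library stood far from the other 3 for 2 of the 28 genes whose 18-month levels were checked. Ebf1 lay at 2.96 FPKM in that library, which is still above every wildtype library at 12 months. Lrrc1 lay at 5.61 FPKM in 1 library. Chance gives about 1 such group in 20. The groups of 3 at 12 months were too small for this check.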

How the results depend on the processing

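The count of genes past the adjusted threshold was 0 in the fit reported and in all alternatives except 2. Without a filter, 4 of 33409 genes passed, each with 0 reads in one genotype and 1 or 2 in the other (n-R5s41, Gm38074, Gm24549 and Gm45846). With library quality weights 2598 passed, a setting that weighted wildtype 1 at 5.76 and wildtype 3 at 0.237; the cause was not tested. Leaving out 1 library at a time gave 0 in every case, and genes at an unadjusted p under 0.05 then numbered from 157 to 1236. Genes with an interval inside -1 and 1 numbered 32165 without a filter and 7899 at a minimum mean of 5 FPKM, because more or fewer genes were tested. The genes added without a filter lie below 1 FPKM, where log2(FPKM + 1) leaves little room for a wider interval. They are therefore not shown to change by less than 2-fold. A pseudocount of 0.1 gave 12629 genes, against 13224 in the fit reported, and leaving out libraries gave 12984 to 13222.

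The replicate block called 0 genes, with 205 at an unadjusted p under 0.05. Wildtype 3 correlated best with mutant 3, but wildtype 1 and 2 both correlated best with mutant 1, at 0.18 and 0.64.

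Of 119 genes checked, 105 kept their direction in every setting. Many of these were named because their groups did not overlap, and such genes cannot turn when 1 library is left out. That count is therefore no independent measure of stability. With library weights the difference turned for Elovl2 (0.073), Fads1 (-0.13), Fads2 (-0.12), Hsd17b4 (0.074), Pdgfrb (-0.12), Cldn5 (0.032) and mt-Nd3 (0.063). With the Malat1 level as a term it turned for Malat1 (0.13) and mt-Nd6 (0.0058), and with median centring for Hsd17b4 (0.013) and mt-Nd6 (0.018). When single libraries were left out, these ranges crossed 0: Elovl2 -0.092 to 0.031, Elovl5 -0.068 to 0.012, Elovl6 -0.020 to 0.042, Fads2 -0.033 to 0.12, Hsd17b4 -0.086 to 0.089, Malat1 -0.85 to 0.21, Cldn5 -0.32 to 0.15, Pdgfrb -0.020 to 0.14 and mt-Nd6 -0.094 to 0.086. Gfap (-0.60 to 0.20), Edn2 (-1.43 to 0.040) and Serpina3n (-0.66 to 0.078) turned only without wildtype 1.

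The settings added after seeing the data were the values within each Malat1 level and the counts without overlap under other scalings. Depth limits genes near 1 FPKM most. Intervals cover the spread within the 3 uninjected groups, the 4 wildtype libraries at 18 months included. With the 6 libraries at 12 months alone, 202 genes had an unadjusted p under 0.05 in limma, against 302 in the fit reported.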
